A study of Oryza sativa with 12 samples.

Results

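The subject is the difference in gene expression between rice seedlings labelled as pkg mutants and wild type seedlings, taken over untreated and treated plants together. RNA was sequenced from whole 14-day-old seedlings of cultivar ZH11, grown with 12 h of light a day. The 4 groups of 3 libraries were pkg given 10 µM Br-cGMP for 5 h, untreated pkg, wild type given the same dose, and untreated wild type, so 6 pkg libraries stood against 6 wild type libraries. The labels give the mutant genotype as PKG-/- and name neither the allele nor the number of lines, so the mutation and other differences between the lines cannot be told apart. The series describes its replicates as biological repetitions.

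The deposited values carry no stated unit and were read as FPKM, that is, reads scaled by gene length and by sequencing depth. Genes were taken from the reference annotation of the deposited data. Those at 1 FPKM or more in at least 6 of the 12 libraries were tested, which left 12369 of 37830 reference genes, among 112071 listed features of all kinds. The genotype difference was fitted with treatment as a covariate on log2(FPKM + 1), with limma and Benjamini-Hochberg adjustment. A gene was called at an adjusted p under 0.05. A called gene was termed graded when both genotypes averaged at least 1 FPKM (11877 of the tested genes) and single-genotype otherwise (492 tested genes). Folds of low genes are understated on this scale.

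PKG is a protein kinase activated by cyclic GMP, a second messenger that plants make in response to hormones and stress, and Br-cGMP is an analogue of that messenger. The series title links the kinase to gibberellin, a growth hormone. In gibberellin signalling the receptor GID1 binds the hormone and removes the repressor SLR1, after which the transcription factor GAMYB activates target genes.

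Reads assigned to features, recovered from the deposited values, ranged from 6667261 to 9132667 per pkg library and from 7134685 to 9438909 per wild type library. The labels name whole seedlings, but 3 libraries (untreated pkg 3, pkg Br-cGMP 3 and untreated wild type 3) were low in root genes. The summed level of 14 listed root markers was 224 to 631 FPKM in these 3 libraries and 1786 to 8346 FPKM in the other 9. By genotype that sum ranged from 251 to 6968 FPKM in pkg and from 224 to 8346 FPKM in wild type, with medians of 2032 and 3488 FPKM. The root channel gene PIP2-3 was listed at 0 in these 3 libraries, and the silicon exporter gene LSI2 was listed at 0 in untreated pkg 3. Much of the sum came from the metallothionein gene MT4C, at 4.24 to 7.83 FPKM in these 3 libraries and 811 to 6215 FPKM in the other 9. Not every marker fell. The phosphate transporter gene PHT1-1 (480 FPKM) and the iron transporter gene IRT2 (3.28 FPKM) were highest of the 12 libraries in pkg Br-cGMP 3. The summed level of 14 photosynthesis genes, which mark the shoot, had a median of 7797 FPKM in pkg and 6465 FPKM in wild type. Only 7 of the 14 reached 1 FPKM in each library, so the sum rests on these. The low libraries are 2 of the 6 pkg and 1 of the 6 wild type libraries. In such whole-plant samples, fewer cells of a type and less RNA per cell cannot be told apart.

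The genes named by the study's subject did not pass the test. The locus taken for PKG, OS02G0281000, which has no symbol in the files, lies on chromosome 2 from 10419062 to 10428014. Positions here and below are those of the deposited tables, whose build is not stated. The locus had 3.68, 8.82 and 9.29 FPKM as the lowest, median and highest pkg value, against 4.65, 6.25 and 7.09 FPKM in wild type. Its level was thus not below wild type in the libraries labelled pkg (log2 difference 0.26 ± 0.20 SE, adjusted p = 0.594). Since the labels leave the altered stretch of the gene unnamed, its level does not check the genotype. SLR1 had a median of 303 FPKM in pkg and 378 FPKM in wild type (-0.25 ± 0.18, adjusted p = 0.559). GID1 had a median of 202 FPKM in pkg and 180 FPKM in wild type (0.13 ± 0.15, adjusted p = 0.731). GAMYB reached 1 FPKM in 2 of 12 libraries and was not tested; its median was 0.742 FPKM in pkg and 0.738 FPKM in wild type. In the gibberellin list, 4 of 11 genes could be tested, 4 were listed at 0 throughout, and no tested member passed.

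Over both treatments, 61 genes were called, which is 0.493% of the genes tested. Of these, 35 were graded (0.295% of graded genes tested), 30 of them higher in pkg (0.253%) and 5 lower (0.0421%). The other 26, of 492 tested, were single-genotype, 15 higher in pkg and 11 lower. Those 15 came from 213 tested genes with the higher mean in pkg, and the 11 from 279 with the higher mean in wild type. This class is defined by a low mean in a genotype, so its share of calls is not comparable to that of graded genes. The graded genes that rose had pkg to wild type ratios of mean FPKM from 1.55 to 7.02, with a median ratio of 3.26. Those that fell had wild type to pkg ratios from 1.61 to 6.97. In all, 31 of the 35 graded genes differed at least 2-fold and 13 at least 4-fold. Levels were spread widely: among the 30 higher genes, the mean in pkg ran from 3.93 to 967 FPKM, with 11 genes at 100 FPKM or more.

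**Figure D1:**
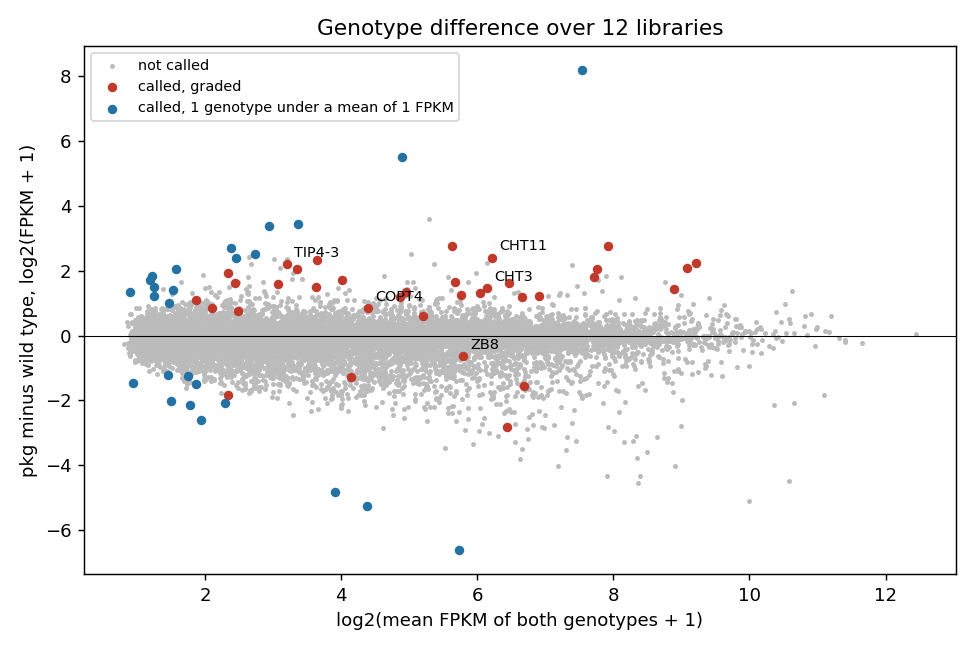
Each point is a tested gene, with log2 of its mean FPKM over both genotypes plus 1 on the x axis and the pkg minus wild type difference in log2(FPKM + 1) on the y axis. Red points are the 35 called graded genes, of which 30 lie above 0; blue points are the 26 called single-genotype genes; grey points were not called.

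The size of the graded set rested on single libraries. The number of graded genes higher in pkg was 58 without pkg Br-cGMP 1, 18 without wild type Br-cGMP 2, 14 without untreated pkg 2, and 13 without untreated wild type 2 or wild type Br-cGMP 1. It was 12 without untreated pkg 3, pkg Br-cGMP 2, pkg Br-cGMP 3 or untreated wild type 1. Without wild type Br-cGMP 3 it was 11, without untreated wild type 3 it was 24, and without untreated pkg 1 it was 28. The number lower in pkg was 38 without pkg Br-cGMP 1, 1 without untreated wild type 1, untreated wild type 3 or wild type Br-cGMP 3, and 2 without untreated pkg 2, untreated pkg 3, pkg Br-cGMP 2, pkg Br-cGMP 3, wild type Br-cGMP 1 or wild type Br-cGMP 2. The number lower was 4 without untreated pkg 1 and 6 without untreated wild type 2. Without the 3 libraries low in root genes, 6 graded genes were higher and 3 lower, and 7 of the 35 were still called. With each of the 12 libraries left out in turn, 10 of the 35 graded genes were called every time, 9 higher and 1 lower. All 35 kept their direction in every alternative fit.

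Of the 35 graded genes, 5 carry a symbol in the files, and 1058 of the 12369 tested genes do. Chitinases, enzymes that cut the chitin of fungal walls, gave 2 of these 5. CHT11 (OS03G0132900, chromosome 3, 1860429 to 1861772) had 71.2, 112 and 203 FPKM as the lowest, median and highest pkg value, against 15.8, 19.1 and 32.1 FPKM in wild type. The ranges did not overlap, and CHT11 rose by 2.41 ± 0.27 (adjusted p = 0.00156), a call kept in all 25 alternatives. Its difference was 2.34 under Br-cGMP and 2.47 without it. CHT3 (OS06G0726100, chromosome 6, 30887215 to 30888383) had 42.7, 88.7 and 240 FPKM in pkg, against 17.7, 29.7 and 60.8 FPKM in wild type. Over both treatments these ranges overlapped, whereas within each treatment the pkg libraries lay above all wild type libraries. CHT3 rose by 1.45 ± 0.27 (adjusted p = 0.0474), and this call ended in 20 of 25 alternatives, with adjusted p from 0.0285 to 0.212. Among them were the fits without any single library other than untreated pkg 1 or pkg Br-cGMP 1 (adjusted p from 0.0579 to 0.128 in those 10 fits).

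CHT1 (OS06G0726200, chromosome 6, 30890834 to 30892050) lies next to CHT3. It had 148, 200 and 282 FPKM in pkg, against 37.9, 91.9 and 116 FPKM in wild type, with no overlap. The difference of 1.24 ± 0.27 missed the threshold (adjusted p = 0.0806). Chitinase genes form a family, and how reads shared between its members were counted is not given in the sources used here, so the split between CHT1 and CHT3 is uncertain. Of 10 tested members of the chitinase and xylanase inhibitor list, 2 passed and both rose, while 5 lay above and 5 below wild type. The list's median of 0.27 compares with -0.04 over all tested genes and was 0.16 without the 3 libraries low in root genes.

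The other graded genes with a symbol code for a water channel, a copper transporter and an enzyme of phenolic synthesis. TIP4-3 (OS01G0232000, chromosome 1, 7297781 to 7298619), a channel of the vacuole membrane, had 8.38, 12.4 and 21.4 FPKM in pkg, against 1.13, 2.05 and 5.63 FPKM in wild type. All 6 pkg libraries lay above all 6 wild type libraries, and TIP4-3 rose by 2.21 ± 0.30 (adjusted p = 0.00709). The call held without any single library and ended without the 3 libraries low in root genes (2.16, adjusted p = 0.107). COPT4 (OS03G0370800, chromosome 3, 14552198 to 14552749), which codes for a copper transporter, had 21.5, 26.3 and 31.4 FPKM in pkg, against 10.3, 14.1 and 17.8 FPKM in wild type. Its groups did not overlap and it rose by 0.85 ± 0.14 (adjusted p = 0.0259).

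The COPT4 call ended without untreated pkg 3 (adjusted p = 0.0669), pkg Br-cGMP 2 (0.0686), pkg Br-cGMP 3 (0.0755), untreated wild type 1 (0.0652), untreated wild type 2 (0.0546) or wild type Br-cGMP 1 (0.0679). It also ended without the 3 libraries low in root genes (0.209) and with limma-voom on recovered reads (0.0509). ZB8 (OS02G0627100, chromosome 2, 25006495 to 25009018) codes for phenylalanine ammonia-lyase, which opens the pathway to lignin and other phenolics. Its values were 30.3, 40.3 and 53.8 FPKM in pkg, against 45.0, 67.5 and 87.5 FPKM in wild type, overlapping over both treatments but not within either. ZB8 fell by 0.65 on the log2 scale (SE 0.12, adjusted p = 0.0492), with an adjusted p of 0.0321 to 0.282 over the alternatives and the call lost in 21 of 25. The call ended without any single library other than untreated pkg 2 or pkg Br-cGMP 1 (adjusted p from 0.0546 to 0.143).

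The files give no symbol for the remaining 30 graded genes, so the following are given by identifier. OS11G0137200 (chromosome 11, 1714986 to 1718589) had 56.7, 79.3 and 94.8 FPKM in pkg, against 18.3, 23.8 and 31.5 FPKM in wild type. It rose by 1.65 ± 0.17 (adjusted p = 0.000891), with no overlap. OS07G0605400 (chromosome 7, 24809650 to 24810354) had 205, 312 and 467 FPKM in pkg, against 76.6, 87.5 and 116 FPKM in wild type. This gene rose by 1.81 ± 0.19 (adjusted p = 0.00134), again with every pkg library above every wild type library.

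In the other direction, OS03G0115800 (chromosome 3, 887193 to 888623) had 9.76, 15.6 and 55.6 FPKM in pkg, against 39.7, 160 and 210 FPKM in wild type, and fell by 2.83 (SE 0.42, adjusted p = 0.0109). The overlap came from 1 library on each side: untreated wild type 3, low in root genes, was the lowest wild type value, and pkg Br-cGMP 2 the highest pkg value. Without the 3 libraries low in root genes this gene was still called. OS07G0506600 (chromosome 7, 19223928 to 19230480) had 4.98, 8.92 and 13.1 FPKM in pkg, against 14.7, 24.6 and 29.4 FPKM in wild type. It fell by 1.29 (SE 0.22, adjusted p = 0.0287), a call lost in 12 of 25 alternatives (adjusted p from 0.0163 to 0.209), although no values overlapped. Its adjusted p lay between 0.0546 and 0.0963 without untreated pkg 2, untreated pkg 3, pkg Br-cGMP 2, pkg Br-cGMP 3, untreated wild type 1, 2 or 3, or wild type Br-cGMP 1 or 3.

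**Figure D2:**
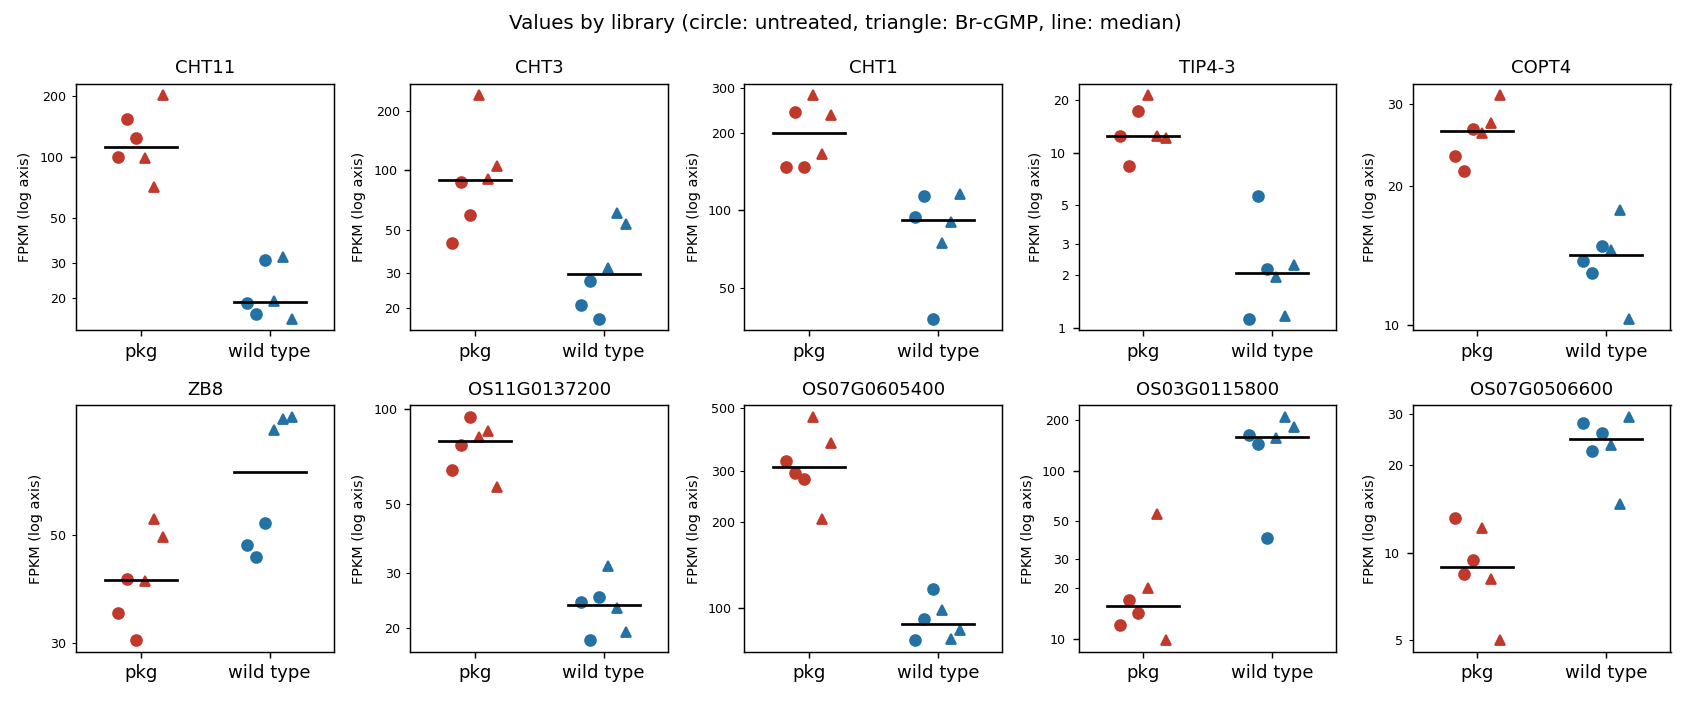
FPKM of 10 genes by library on log axes, with the 6 pkg libraries on the left and the 6 wild type libraries on the right of each panel; circles are untreated, triangles Br-cGMP, and lines the median of 6. CHT11 lies at 71.2 FPKM or more in pkg and does not exceed 32.1 FPKM in wild type, while ZB8 shows its pkg values below wild type within each treatment.

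Of the 35 graded genes, 28 had no overlap between the 6 pkg and the 6 wild type libraries, compared with 1.33% of all graded genes tested. The 30 higher genes gave 25 of these and the 5 lower genes 3. The calls rest on the same values, so a lack of overlap among called genes follows largely from their choice and adds no support. At the edge of the graded definition, the called gene just inside had means of 6.95 FPKM in pkg and 1.10 FPKM in wild type. The called gene just outside had means of 0.974 FPKM in pkg and 3.75 FPKM in wild type. Requiring a mean of at least 5 FPKM in both genotypes left 21 higher and 4 lower graded genes.

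The single-genotype genes are described apart, since a gene that passed the level filter through 1 genotype alone had to differ. OS01G0713200 (chromosome 1, 29620958 to 29622314) had 70.1, 434 and 592 FPKM as the lowest, median and highest pkg value, and 1 read in all 6 wild type libraries together. OS06G0685400 (chromosome 6, 28566194 to 28566973) had 9.20, 52.9 and 113 FPKM in pkg and was listed at 0 in all 6 wild type libraries. OS03G0299700 (chromosome 3, 10518913 to 10520192) had 3 reads in all 6 pkg libraries together, against 81.5, 108 and 115 FPKM in wild type. OS04G0510000 (chromosome 4, 25518258 to 25518789) was listed at 0 in all 6 pkg libraries, against 22.9, 38.3 and 61.6 FPKM in wild type. The other genotype had no read for 6 of the 26 genes, 3 in each direction. None of the 26 carries a symbol in the files.

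Called genes lay on all 12 chromosomes, from 0.285% of the genes tested on chromosome 5 to 0.726% on chromosome 11, and several lay near each other. Another called gene lay within 100 kb of 15 of the 61 called genes, or 24.6%, whereas 495 of the 12369 tested genes lay that near to another called gene. On chromosome 6, a pair of graded genes with a gap of 4.15 kb averaged 967 and 347 FPKM in pkg, against 220 and 84.4 FPKM in wild type. On chromosome 5, a graded pair with a gap of 15.1 kb averaged 39.3 and 43.5 FPKM in pkg, against 16.7 and 16.6 FPKM in wild type. No sequences were compared, so whether such neighbours are copies that share reads is not known. How shared reads were counted is not stated, so the split between neighbours is uncertain where reads are shared.

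Some of these neighbours joined a graded gene to a single-genotype gene. COPT4 lay 18.7 kb from a gene that averaged 8.13 FPKM in pkg and 0.789 FPKM in wild type. On chromosome 4, a gap of 5.87 kb separated genes that averaged 6.95 and 10.3 FPKM in pkg, against 1.10 and 0.958 FPKM in wild type. On chromosome 11, 4 called genes lay between 1522291 and 1902469, the first 2 higher and the next 2 lower in pkg.

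A graded gene also lay beside the PKG locus. OS02G0281200 (chromosome 2, 10444568 to 10450918), singled out after its values were seen, starts 16.6 kb beyond the end of the locus. It had 7.86, 10.4 and 19.5 FPKM in pkg, against 1.98, 2.72 and 5.06 FPKM in wild type, without overlap, and rose by 1.60 ± 0.21 (adjusted p = 0.00547). Without the 3 libraries low in root genes the difference was 1.69 and the call ended (adjusted p = 0.0689).

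The genotype difference was then read in each treatment. Of the 12369 genes, 10 were called under Br-cGMP (0.0808%) and 12 without it (0.097%), 1 graded gene in each, and all of them were among the 61. Thus 33 of the 35 graded genes were called over both treatments and in neither alone; these fits share libraries, so the calls are not independent. The 30 higher graded genes had a median difference of 1.55 under Br-cGMP and 1.57 without it, with ranges from 0.73 to 3.21 and from 0.50 to 3.36. The 2 sets of differences use separate libraries, and over the 12369 tested genes, which are not independent replicates, they correlated at a Pearson r of 0.557.

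The interaction of genotype and treatment gave no call at an adjusted p under 0.05 (0%) with limma, and none with limma-voom on recovered reads. At an unadjusted p under 0.05 it gave 136 genes (1.1%), and none of the 35 graded genes was among them. This does not show that the difference was equal in both treatments.

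**Figure D3:**
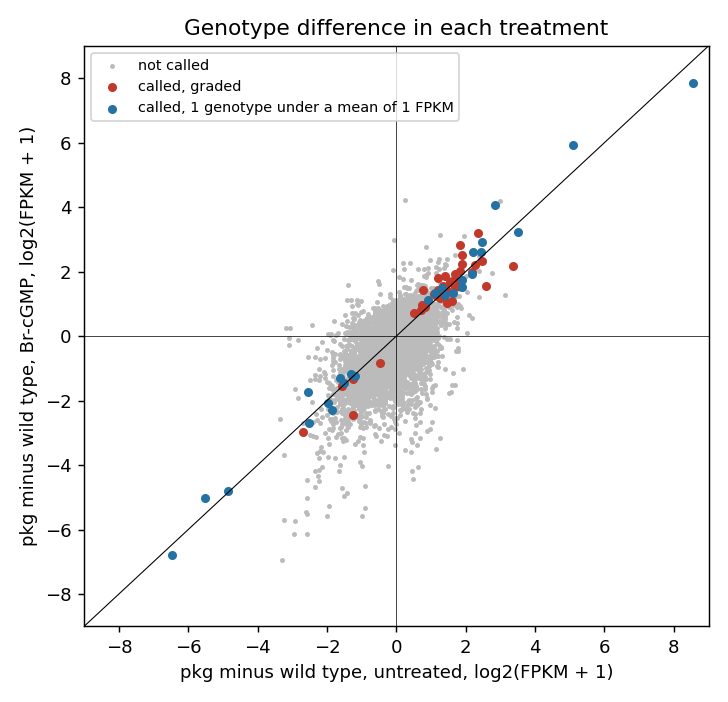
The pkg minus wild type difference in log2(FPKM + 1) under Br-cGMP (y axis) is plotted against that in untreated seedlings (x axis) for each tested gene. The 35 graded (red) and 26 single-genotype (blue) called genes lie near the diagonal line of equal difference, to which the choice of genes by their pooled difference contributes.

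Cell wall genes lay lower in pkg without passing the test. Cellulose synthases build the cellulose fibres of the wall, and CESA4, CESA7 and CESA8 together form the complex of secondary walls, such as those of vessels. Of 14 tested members of the cellulose and CSL synthase list, 11 lay below wild type, with a median of -0.85 beside -0.04 over all tested genes. An unadjusted p under 0.05 was found for 7 lower members and 1 higher member, where 9.24% of all tested genes were lower and 5.76% higher at that level. All 6 tested CESA genes were among the 7, with adjusted p from 0.194 to 0.254.

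CESA7 had 3.01, 9.07 and 21.2 FPKM as the lowest, median and highest pkg value, against 15.5, 25.4 and 31.4 FPKM in wild type (-1.32 ± 0.40, adjusted p = 0.194). CESA8 had 34.0, 93.0 and 160 FPKM in pkg, against 144, 195 and 221 FPKM in wild type (-1.05 ± 0.33, adjusted p = 0.204). CESA4, outside the rule for named genes and chosen after its values were seen, had 5.42, 13.9 and 28.1 FPKM in pkg, against 23.2, 31.9 and 40.3 FPKM in wild type (-1.14 ± 0.37, adjusted p = 0.221). For all 3 genes pkg Br-cGMP 3 was the lowest of the 12 libraries and untreated pkg 3 the highest pkg library, although both were low in root genes. The 6 CESA differences ran from -1.86 to -1.33 under Br-cGMP and from -1.03 to -0.56 without it, with interaction p from 0.127 to 0.734 unadjusted.

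The CESA differences ran from -1.27 to -0.80 without the 3 libraries low in root genes and from -1.04 to -0.77 without pkg Br-cGMP 3. All 6 stayed below an unadjusted p of 0.05 in both cases, and none passed after adjustment. CSLE1, a cellulose synthase-like gene, went the other way, with 66.5, 109 and 142 FPKM in pkg, against 40.0, 58.7 and 72.3 FPKM in wild type (0.84 ± 0.23, adjusted p = 0.166).

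**Figure D4:**
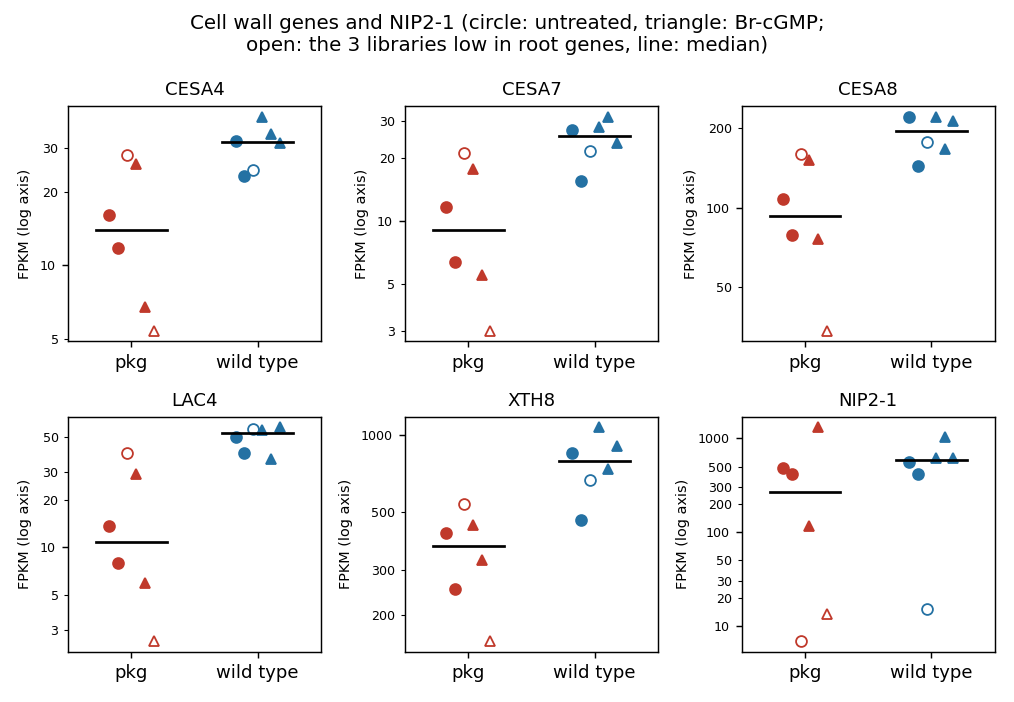
FPKM of 5 cell wall genes and of the root silicon channel gene NIP2-1 by library on log axes, pkg on the left and wild type on the right; circles are untreated, triangles Br-cGMP, open symbols the 3 libraries low in root genes, and lines medians. NIP2-1 is at 6.91 to 15.3 FPKM in the open libraries, whereas CESA4 in those libraries spans 5.42 to 28.1 FPKM.

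XTH8 and LAC4 also lay lower in pkg without a call. XTH8, which codes for a xyloglucan enzyme of growing walls, had 159, 371 and 540 FPKM in pkg, against 469, 793 and 1066 FPKM in wild type (-1.19 ± 0.30, adjusted p = 0.138). LAC4, a laccase of the group that couples lignin units, had 2.56, 10.8 and 39.5 FPKM in pkg, against 36.3, 52.5 and 57.3 FPKM in wild type (-1.97 ± 0.51, adjusted p = 0.138). It passed only without pkg Br-cGMP 1 (-2.30, adjusted p = 0.0472). In the phenylpropanoid and lignin list, none of 22 tested members passed, 9 lay above and 13 below, and the median was -0.25. There were 11 above and 11 below, with a median of -0.06, without the 3 libraries low in root genes. ZB8, called above, is not in this list, and the list's member PAL stood at 0.10 ± 0.27 (adjusted p = 0.9). LAC10 stood at -1.37 ± 0.56 and LAC7 at 0.97 ± 0.40, so laccase genes lay on both sides.

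Expansins, which loosen growing walls, lay below wild type in 21 of 23 tested cases (median -0.37), with no call. EXPB4 had the smallest p, with medians of 56.7 FPKM in pkg and 111 FPKM in wild type (-1.08 ± 0.44, adjusted p = 0.287). Without the 3 libraries low in root genes, 16 of 23 expansins lay below and the median was -0.16. With the mean of 4 root genes as a covariate, 16 also lay below and the median was -0.14. Over all 12 libraries, the median was -0.81 with limma-voom on recovered reads and -0.74 with a pseudocount of 0.1. The part of the 3 libraries in the expansin shift beyond these fits was not tested.

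Aquaporins, channels for water and small solutes, had 1 call of 16 tested members, TIP4-3, which rose. In all, 13 of 16 tested members lay below wild type, and the list's median was -0.36. TIP2-2 had 81.0, 145 and 241 FPKM in pkg, against 231, 260 and 319 FPKM in wild type (-0.94 ± 0.24, adjusted p = 0.138). PIP2-6 had medians of 55.6 FPKM in pkg and 147 FPKM in wild type (-1.57 ± 0.44, adjusted p = 0.174). Without the 3 libraries low in root genes the aquaporin median was -0.15, with 11 below, and with the mean of 4 root genes as a covariate it was -0.02, with 8 below. That covariate includes NIP2-1 and PIP2-3, which are themselves tested members of this list, so the list was adjusted in part for its own members.

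Among transcription factors and stress proteins, no listed gene passed. WRKY76, a stress-induced transcription factor gene, had 71.1, 117 and 262 FPKM in pkg, against 12.99, 55.5 and 136 FPKM in wild type (1.36 ± 0.36, adjusted p = 0.143). NAC71 stood at 0.70 ± 0.28, and 6 of 7 tested WRKY and NAC genes lay above wild type, with a list median of 0.26. The small heat shock protein gene HSP16.9A had 4.01, 5.42 and 8.33 FPKM in pkg, against 1.31, 1.99 and 4.17 FPKM in wild type (1.10 ± 0.24, adjusted p = 0.0903), and HSP18.9 stood at 0.68 ± 0.19. HSP16.9A passed only without untreated wild type 3 (1.27, adjusted p = 0.0305). The 26 tested heat shock genes had a median of 0.03, with 15 above.

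Jasmonate genes, which act in wound and defence signalling, were split. In the synthesis list 3 of 9 tested members lay above wild type, among them the allene oxide synthase gene CYP74A2 (0.57 ± 0.25) and the lipoxygenase gene CM-LOX2 (1.17 ± 0.53), and the median was -0.12, which turned to 0.00 with quantile normalization. The TIFY repressor genes lay below in 6 of 8 tested cases (median -0.27). Diterpenoid phytoalexin genes, which make antimicrobial terpenes, lay below in 7 of 8 (median -0.41), with the synthase gene KSL4 at -1.25 ± 0.57; without the 3 libraries low in root genes, 4 of 8 lay below (median -0.10), and with the root gene covariate 3 of 8 (median 0.08). None of these genes passed, and the smallest adjusted p among the named ones was 0.321.

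Calcium signalling genes had no call among 50 tested, 24 above and 26 below, with a median of 0.00 that was 0.10 with quantile normalization. CPK23, a calcium-dependent protein kinase gene, had 11.8, 24.3 and 28.4 FPKM in pkg, against 29.0, 35.6 and 44.9 FPKM in wild type, with no overlap (-0.68 ± 0.20, adjusted p = 0.188). The protein kinase gene CIPK18 stood at -1.16 ± 0.38 and the calmodulin-like gene CML15 at 0.83 ± 0.33.

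The mineral nutrient lists gave no call either, but the copper transporter gene COPT4, called above, is in none of them. In the phosphate, nitrate and ammonium list 5 of 7 tested members lay above wild type (median 0.23), with the phosphate transporter gene PHT1-1 at 0.59 ± 0.21 and the ammonium transporter gene AMT2-1 at 0.58 ± 0.25. Of 27 tested metal and silicon transport genes, 15 lay above (median 0.09). MTP7, of a metal tolerance protein family, stood at 0.50 ± 0.17. The other named members averaged under 1 FPKM in a genotype and so are not graded: HKT7, of the sodium and potassium transporter family, had means of 0.983 FPKM in pkg and 3.23 FPKM in wild type, and the iron transporter gene IRT2 1.66 FPKM in pkg and 0.416 FPKM in wild type. Metallothioneins, small proteins that bind metals, lay above in 6 of 7 (median 0.33); MT2A had medians of 955 FPKM in pkg and 587 FPKM in wild type (0.63 ± 0.18, adjusted p = 0.17).

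No member of the growth, housekeeping and organ marker lists passed. Cytosolic ribosomal protein genes lay below wild type in 17 of 18 tested cases, with a median of -0.16. Of all tested genes, 45.4% lay above wild type in this fit and 59.0% with quantile normalization. With that normalization 14 of 18 ribosomal protein genes lay below (median -0.10). There were 15 below without the 3 libraries low in root genes and 14 with the root gene covariate (median -0.13 in both). DNA replication and histone genes had 13 of 30 above and a median of -0.03, with the cyclin gene CYCP4-1 at -1.58 ± 0.72. That median turned to 0.18 without the 3 libraries low in root genes (21 of 30 above), to 0.11 with the root gene covariate (18 above) and to 0.07 with quantile normalization. Photosynthesis genes had 4 of 7 above and a median of 0.07, with the Rubisco small subunit gene RBCS at 0.97 ± 0.44. Their median turned to -0.13 without the 3 libraries low in root genes and to -0.07 with the root gene covariate, with 2 of 7 above in each case. Antioxidant enzymes had 5 of 7 above and a median of 0.04. The 12 tested root markers had 7 below and a median of -0.41, which was -0.02 without the 3 libraries (6 below) and 0.12 with the covariate (4 below), which was itself made from root genes.

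**Figure D5:**
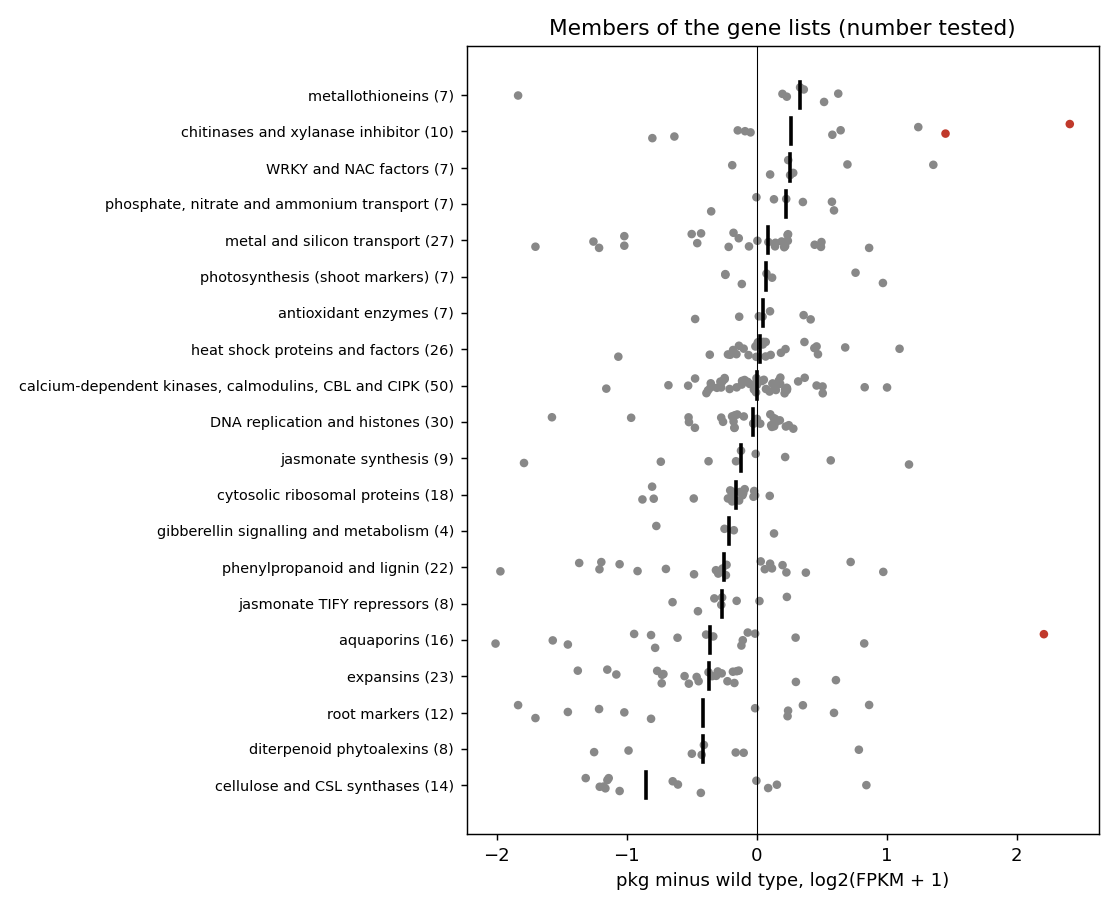
Each row is a gene list with its number of tested members, each point the pkg minus wild type difference of a member in log2(FPKM + 1), and each bar the list's median; lists with fewer than 4 tested members are left out. Red points passed the test (CHT11, CHT3 and TIP4-3), and the cellulose and CSL synthases have the lowest median, -0.85.

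Outside the lists, genes with a symbol and no overlap between genotypes that missed the threshold were looked up after their values were seen. Only some of them are given here. In all, 15 of the 1058 tested genes with a symbol had no overlap, or 1.42%, beside 1.55% of all tested genes. UGE-3, for an enzyme that converts UDP-glucose and UDP-galactose, had 59.8, 69.1 and 115 FPKM in pkg, against 33.0, 41.1 and 56.6 FPKM in wild type (0.84 ± 0.17, adjusted p = 0.066). HAP2A, for a subunit of a CCAAT-binding transcription factor, had 4.47, 6.51 and 10.9 FPKM in pkg, against 1.15, 2.45 and 3.81 FPKM in wild type (1.22 ± 0.25, adjusted p = 0.0679).

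Lower in pkg were DRB5, for a double-stranded RNA-binding protein, and GER3, for a germin-like protein. DRB5 had 18.3, 54.1 and 107 FPKM in pkg, against 124, 172 and 232 FPKM in wild type (-1.79 ± 0.41, adjusted p = 0.109). GER3 had 2.28, 8.17 and 11.6 FPKM in pkg, against 19.0, 19.5 and 40.9 FPKM in wild type (-1.50 ± 0.34, adjusted p = 0.101). SCAMP1, for a membrane trafficking protein, had 24.7, 29.8 and 35.8 FPKM in pkg, against 37.6, 41.3 and 49.8 FPKM in wild type (-0.49 ± 0.12, adjusted p = 0.138). Without pkg Br-cGMP 1, UGE-3 (adjusted p = 0.0457), HAP2A (0.037) and DRB5 (0.0472) passed. UGE-3 also passed with quantile normalization (adjusted p = 0.0175) and with all feature types in the fit (0.0469). HAP2A also passed with all feature types (0.0481) and with a replicate block (0.0369), and DRB5 with that block (0.0445). Over all alternatives the adjusted p ran from 0.0175 to 0.268 for UGE-3, from 0.0369 to 0.256 for HAP2A and from 0.0445 to 0.254 for DRB5.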

How the data were processed

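RNA-seq tables of 12 seedling libraries were used, grouped by sample title. The unit of the deposited values is not stated and was read from the values as FPKM: multiplied by gene length, 100% of the values above 0 gave whole multiples of a step fixed for each library (tolerance 0.01). The tools named in the submitters' processing notes are CASAVA 1.8 and HISAT2, while the program that counted reads, its annotation and the build are not stated there. The authors' FPKM were analysed as log2(FPKM + 1) with limma 3.58.1 in R 4.3.3 (trended, robust moderation), and summarised with Python 3.11.15, pandas 2.3.3 and matplotlib 3.10.9. The fit was tested on simulated reads.

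The members, lists and tests were chosen with earlier results of these data known. Lists were matched to the files' 2079 symbols. Named genes were, in each direction, up to 12 graded and 5 single-genotype called genes with a symbol, at most 2 identifiers without one, up to 3 members of each list with the smallest unadjusted p, given where it was under 0.05, and 4 genes of the study's subject. A gene that this rule named is not reported here. No sequences were used. Replicate libraries differed beyond sampling noise (chi-square per degree of freedom 28.3 to 106), so each counts as 1 sample.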

Additional observations from a re-analysis of the deposited data

Results flagged for a closer look

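Among 106 sets of 6 libraries of a genotype, 9 held a value set apart from the other 5. The cut used flags about 1 in 20 sets of normally distributed values. These sets join both treatments, and where the other 5 values are 0 any value above 0 is flagged, so that rate need not hold here. In pkg Br-cGMP 3, which was low in root genes, CPK23 was lowest at 11.8 FPKM, LAC10 lowest at 0.856 FPKM and MTP7 highest at 23.5 FPKM. OS03G0115800 was lowest among wild type libraries in untreated wild type 3, at 39.7 FPKM, and that library was also low in root genes. SLR1 was highest among pkg libraries in untreated pkg 1, at 536 FPKM. GER3 was highest among wild type libraries in wild type Br-cGMP 1, at 40.9 FPKM. The PKG locus OS02G0281000 was lowest among pkg libraries in pkg Br-cGMP 2, at 3.68 FPKM. OS01G0713200 reached 0.107 FPKM in wild type Br-cGMP 2 and OS03G0299700 reached 0.362 FPKM in untreated pkg 3, each with few reads.

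Features other than reference genes were outside the comparisons above. In a fit of all feature types, 117 of 8725 such features differed past the threshold (1.34%), of which 78 were higher in pkg and 39 lower. They comprised 110 features added to the reference by the authors' tables and 7 with the prefix EPlOSAG, and 37 of them averaged at least 1 FPKM in both genotypes.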

How the results depend on the processing

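Alternatives changed 1 choice at a time, and the cause of each change below was not tested. Leaving out single libraries gave 11 to 58 graded genes higher and 1 to 38 lower in pkg, 14 to 17 single-genotype genes higher and 8 to 12 lower, and 0 interactions. Graded genes lower in pkg, 5 in the reported fit, numbered 14 with all feature types in the fit, 3 with no filter on low values, and 2 with a pseudocount of 0.1, with group means averaged over treatments or with limma-voom on recovered reads. Without the 3 libraries low in root genes, 6 graded genes were higher, 3 lower, and 6 single-genotype genes lower. Requiring a mean of 5 FPKM over the libraries left 5 single-genotype genes higher and 3 lower. Same-numbered pkg and wild type libraries deviated together at correlations of -0.23 to 0.61. The 0.61 was that of the untreated libraries numbered 3, and all 3 libraries low in root genes carry that number. Nothing in the labels says that a number marks a shared batch, and whether it does was not tested. A replicate block gave 40 graded genes higher and 12 lower. Quantile normalization moved the median difference of all genes by 0.11, with 35 graded genes higher and 4 lower. Among all refits of the named genes, 1247 kept direction and side of the threshold, 64 lost a call and 10 gained one, and none changed direction. Most named genes were not called in the reported fit, so most refits that kept their side were of uncalled genes. Of the called genes, ZB8 lost its call in 21 refits, CHT3 in 20, OS07G0506600 in 12 and COPT4 in 8, while CHT11 kept its call in all 25. The number of libraries and their shared deviations limit which differences can be called; genes under about 1 FPKM are not covered.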
